A study of Mus musculus with 2 samples.

Results

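A set of 10 genes of the cartilage matrix were followed in costal chondrocyte-lineage cells before and after culture. They are Acan, Hapln1, Matn1, Matn3, Chad, Snorc, Ucma, Clec3a, Cnmd and Cytl1, which are 10 of the 21849 genes listed in the files and were taken by symbol. The study sequenced costal cartilage-derived stem cells (CDSCs) of the mouse by droplet single-cell RNA-seq (10x Chromium, 3′ v3.1 chemistry), with 1 library of primary cells and 1 library of cells cultured to passages 2 to 3. The question the pair of libraries addresses is how culture altered the transcriptome of CDSCs. Barcodes were kept where 500 or more genes and 1000 or more UMIs were counted and no more than 10% of UMIs were mitochondrial, so that 11746 of 11896 primary and 5338 of 10798 cultured barcodes entered the analysis. A UMI (unique molecular identifier) marks 1 captured transcript, so levels are not divided by transcript length.

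In the study's methods, costal cartilage of C57BL/6J pups of the CD45.1 or ZsGreen line was digested with collagenase in the first week after birth, and CDSCs were the CD45- CD51+ cells sorted from that digest. The study describes its cultured CDSCs as grown from sorted cells. Whether the sequenced primary cells went through this sort, which would remove cells with the haematopoietic marker CD45, is not clear from the sources used here. Which line and how many pups went into each library are not given either. ZsGreen, the fluorescent reporter gene, had 60957 UMIs among primary cells and 0 among cultured ones, so donor line and culture cannot be told apart. The labels give the tissue as bone marrow although the cells are named after costal cartilage. Defining chondrocyte genes were abundant in the primary library, with Col2a1 at 53269 CPM (UMI counts scaled to the same library total) and Sox9 at 1308 CPM, and lower in the cultured library, at 490 and 81.2 CPM. Kept cells with at least 3 endothelial, haematopoietic or mast cell genes numbered 38 primary and 106 cultured. The median depth was 10027 UMIs per primary cell and 56865 per cultured cell, and the libraries shared 32 barcodes, of which 15 were kept in both. A cultured cluster of 862 cells had a median of 1277 UMIs and 0.322% mitochondrial UMIs.

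Cartilage resists compression because aggrecan, a core protein densely hung with sulfated sugar chains, is held on long hyaluronan strands by link protein. Smaller proteins join this gel to the collagen fibrils and to the cell surface, and others keep the tissue free of vessels or limit its mineral. Chondrocytes grown as a monolayer are known to lose this set of products over passages.

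Each gene was lower in the cultured library. With 1 library per group there was no replicate, no test could be made, and the intervals given are exact 95% intervals for counting error only. All 10 were at least 4-fold lower, against 5.73% of the 9115 genes that reached 10 CPM in 1 or both libraries. Their median log2 ratio of cultured over primary CPM was -10.47, beside 0.37 over those 9115 genes. Together they took 1.86% of all primary UMIs and 0.00300% of all cultured UMIs.

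Acan encodes aggrecan itself. It had 1954 CPM in primary cells and 2.51 CPM in cultured cells, from 268042 and 830 UMIs, which was 777-fold lower (interval 726 to 833). Hapln1, the link protein that locks aggrecan to hyaluronan, had 1157 and 7.40 CPM and was 156-fold lower (interval 150.2 to 163). The gap was thus smaller for link protein than for aggrecan in this pair of libraries. The intervals treat each UMI as independent, although 72.7% of cultured Acan UMIs lay in 53 cells, and they give no spread between libraries.

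Matrilins are adaptor proteins that bridge collagen fibrils and proteoglycans. Matn3 had 747 CPM in primary and 0.727 CPM in cultured cells and was 1028-fold lower (interval 906 to 1172). Matn1 was scarce from the start, with 17.8 CPM from 2444 UMIs in primary cells and 2 UMIs in the cultured library. Against a floor of 3 counts it was 1961-fold lower, with a counting interval of 813 to 24302. Chad, chondroadherin, a leucine-rich protein that binds collagen and cells, had 1530 CPM in primary cells and 11 UMIs in all cultured cells. It was 45924-fold lower with an interval of 25666 to 91997, the widest difference of the 10 when UMIs were pooled. With each cell given the same weight its log2 ratio went from -15.49 to -12.84, and Snorc, at -12.90, was then the widest. Of the 11 cultured Chad UMIs, 1 lay in the 795 cells with under 5000 UMIs, where equal weights count a UMI for more. With only cells of at least 5000 UMIs the pooled log2 ratio of Chad was -15.63.

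Among the smaller products, Snorc, a transmembrane chondroitin sulfate proteoglycan, had 2127 and 0.239 CPM and was 8887-fold lower. Ucma, a vitamin K-dependent Gla protein of young cartilage, had the highest level of the 10, at 6737 CPM, against 1.496 CPM in cultured cells. That made it 4502-fold lower (interval 4122 to 4927). Clec3a, a cartilage C-type lectin, had 116 CPM in primary cells and 10 UMIs in the cultured library. Its 3826-fold difference carries a wide interval, 2080 to 7980, because of those few counts.

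Cnmd encodes chondromodulin, which keeps vessels out of cartilage, and stood at 3499 and 6.66 CPM, a 526-fold difference. Cytl1, a secreted cytokine-like protein of chondrocytes, had 693 CPM in primary cells and 10.9 CPM in cultured cells. It was the least reduced of the 10, at 63.8-fold with an interval of 61.7 to 66.0, and it had the highest cultured level. Ordered from the lowest log2 ratio over the 9115 genes, Chad stood at place 2, Snorc at 3, Ucma at 5 and Clec3a at 6, while Hapln1 stood at 49 and Cytl1 at 93.

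**Figure D1:**
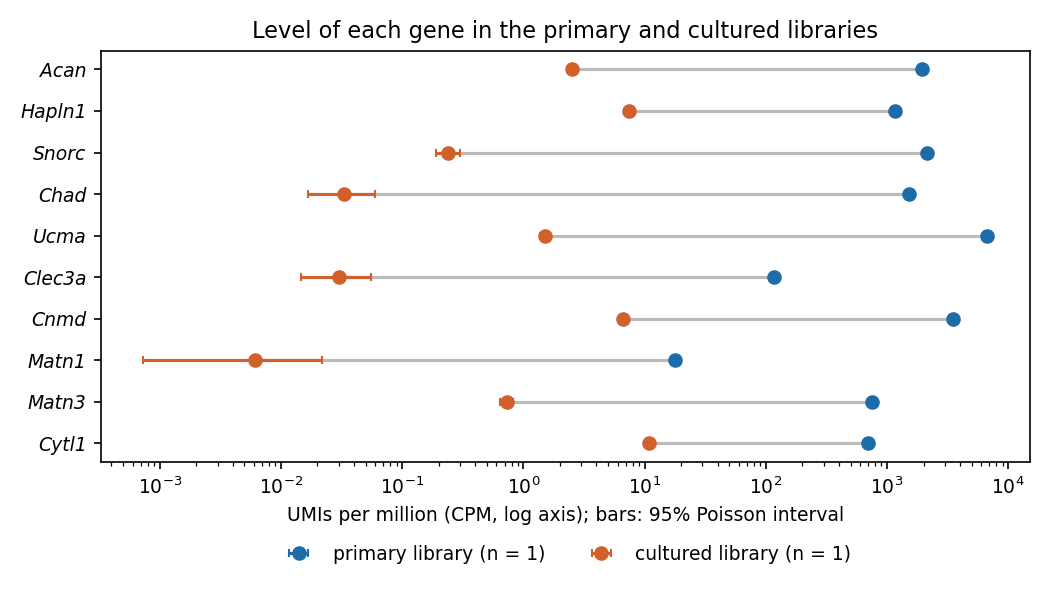
CPM of each gene on a log axis in the primary (blue) and cultured (orange) library, 1 library each, with 95% Poisson intervals as bars. Every gene sits to the left in the cultured library, from 6737 to 1.496 CPM for Ucma and from 693 to 10.9 CPM for Cytl1.

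The genes lie on 10 different chromosomes (GENCODE M21, GRCm38) and all are annotated as protein coding. Acan lies at chr7:79053483-79115099, Hapln1 at chr13:89539796-89611652, Matn1 at chr4:130944385-130955475, Matn3 at chr12:8947929-8972028 and Chad at chr11:94565047-94569127. Snorc lies at chr1:87470271-87475482, Ucma at chr2:4976122-4985748, Clec3a at chr8:114418086-114425846, Cnmd at chr14:79637690-79662170 and Cytl1 at chr5:37735519-37739820. Chad overlaps Acsf2 and Hapln1 overlaps Gm8546, in both cases on the other strand. Of the 20 flanking protein-coding genes, chosen after the values were seen, 13 had at least 10 CPM, of which 4 were at least 4-fold lower and 1 at least 4-fold higher, beside 5.73% and 10.6% of the 9115 genes. Hapln1 lies between Edil3, at a log2 ratio of -4.16, and Vcan, at 2.60, so genes on either side of it differed in direction.

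RefSeq start-site windows (GRCm38.p6, 250 bases before to 50 after the start) were found for 8 of the 10, with Snorc and Clec3a not matched. The RefSeq start is not always the gene start given above. For Acan and Cnmd it lay upstream of that start, and for Hapln1 inside the gene. The letters TATAAA, the core of a TATA box, were searched on both strands and stood in 1 of the 8, that of Chad, 28 bases before the start, against 13.6% of 32851 windows. GGGCGG, the core of a GC box, stood in 5 of the 8 (Acan, Chad, Matn1, Matn3 and Cytl1) against 35.7%. AACAAT and ACAAAG, letters that SOX proteins can bind, were in none of the 8, against 10.7% and 18.7% of all windows. With only 8 windows, none of these counts is read as a difference from the shares over all windows. The 250 bases before the start are shown for Chad, with the only TATAAA, for Acan as the main proteoglycan, for Matn3 with overlapping GC boxes, and for Cytl1, with the smallest difference under pooled UMIs and with equal cell weights. Capitals mark TATAAA and GGGCGG or its reverse complement.
Chad, chr11:94564797-94565046, + strand: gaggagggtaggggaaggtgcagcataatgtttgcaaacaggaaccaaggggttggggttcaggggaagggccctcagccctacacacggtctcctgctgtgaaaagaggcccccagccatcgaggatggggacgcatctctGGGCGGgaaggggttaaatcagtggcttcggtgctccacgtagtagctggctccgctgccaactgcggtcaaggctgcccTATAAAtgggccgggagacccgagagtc
Acan, chr7:79052976-79053225, + strand: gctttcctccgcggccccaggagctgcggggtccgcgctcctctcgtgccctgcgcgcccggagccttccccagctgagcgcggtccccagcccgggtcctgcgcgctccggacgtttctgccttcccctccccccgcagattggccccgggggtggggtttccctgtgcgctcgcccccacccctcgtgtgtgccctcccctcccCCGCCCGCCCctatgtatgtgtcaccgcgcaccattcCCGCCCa
Matn3, chr12:8947679-8947928, + strand: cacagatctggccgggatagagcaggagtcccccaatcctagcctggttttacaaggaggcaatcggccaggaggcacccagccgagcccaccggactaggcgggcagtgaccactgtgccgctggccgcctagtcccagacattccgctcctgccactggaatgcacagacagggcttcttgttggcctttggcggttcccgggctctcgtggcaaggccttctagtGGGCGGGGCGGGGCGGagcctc
Cytl1, chr5:37735269-37735518, + strand: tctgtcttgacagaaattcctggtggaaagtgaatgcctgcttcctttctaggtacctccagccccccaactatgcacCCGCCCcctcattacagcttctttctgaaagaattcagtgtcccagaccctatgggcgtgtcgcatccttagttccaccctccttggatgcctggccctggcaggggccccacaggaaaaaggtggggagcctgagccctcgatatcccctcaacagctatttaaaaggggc
The Acan window was the richest in G and C of the 8, at 74%, where the median over all windows was 52.7%. In Matn3 the 3 GGGCGG matches overlapped and began 22, 17 and 12 bases before the start.

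The relatives of these genes did not share 1 direction. Of 30 relatives in 7 lists, 13 were at least 4-fold lower, 7 at least 4-fold higher and 10 in between, beside 11.2% lower and 11.6% higher of the 17307 genes with a ratio. Among the 19 relatives that reached 10 CPM, 8 were lower and 5 higher by that measure, beside 5.73% and 10.6% of the 9115 genes. Over all 30 relatives the median log2 ratio was -1.34.

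Aggrecan belongs to the hyalectans, and its relative Vcan, versican of soft tissues, went from 2.90 to 17.5 CPM (log2 ratio 2.60). Acan made up 99.8% of hyalectan UMIs in primary cells and 12.4% in cultured cells, while Vcan made up 0.148% and 86.3%. The hyalectan pool as a whole was 1959 CPM in primary cells and 20.3 CPM in cultured cells. Bcan and Ncan, the brain members, were below 2 CPM in both libraries, at log2 ratios of -2.30 and -3.73.

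Hapln1 remained the main link protein gene, with 99.6% of link protein UMIs in primary and 84.2% in cultured cells. Hapln4 differed in the other direction, at 0.0948 and 1.13 CPM (log2 ratio 3.57), while Hapln2 and Hapln3 stood at -3.07 and -4.21. Among matrilins, Matn3 made up 90.8% of UMIs in primary cells and 3.51% in cultured cells. Matn2, the matrilin of many connective tissues, made up 2.03% and 68.8%, with CPM of 16.7 and 14.3, and Matn4 had 41.0 and 5.72 CPM (-2.84).

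A pair of close relatives of single members were lower as well. Chadl, a chondroadherin-like protein, had 574 and 4.11 CPM (log2 ratio -7.13), and Tnmd, tenomodulin, the tendon relative of Cnmd, had 28.4 and 0.200 CPM (-7.15). Mgp, the matrix Gla protein, stayed abundant at 7927 and 2841 CPM (-1.48), unlike the Gla protein Ucma. Clec3b, tetranectin, the relative of Clec3a, was near 0 in both libraries, at 0.445 and 0.339 CPM.

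Around hyaluronan, the synthase genes Has1 and Has2 had log2 ratios of -2.42 and -2.33, Has3 was under 1 CPM in both libraries (-0.14), and the receptor gene Cd44 had 8.11 CPM in primary and 358 CPM in cultured cells (5.46). Of 6 enzymes that can cut aggrecan or other matrix proteins, 4 were at least 4-fold higher and none at least 4-fold lower. Adamts5, the main aggrecanase of the mouse, had 2.01 CPM in primary and 271 CPM in cultured cells, and Mmp13, a collagenase, had 0.153 and 22.4 CPM. Adamts1 and Adamts4 had log2 ratios of 2.56 and 2.15, and Adamts9 and Adamts15 of -0.78 and -0.23.

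Among 8 regulators of cartilage genes, 4 were at least 4-fold lower and none higher. Sox9, which drives the chondrocyte program, had a log2 ratio of -4.01, while its partners Sox5 and Sox6 stood at -1.20 and -1.79. Foxa3, a forkhead factor, had 63.1 CPM in primary cells and 13 UMIs in the cultured library (-10.65), and Fgfr3, a growth plate receptor, was at -5.91. Foxa2 stood at -2.52, Bmpr1b at -1.14 and Nkx3-2, from 9 and 23 UMIs, at 0.09. The Sox9 difference was smaller on the log2 scale than that of every one of the 10 matrix genes.

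**Figure D2:**
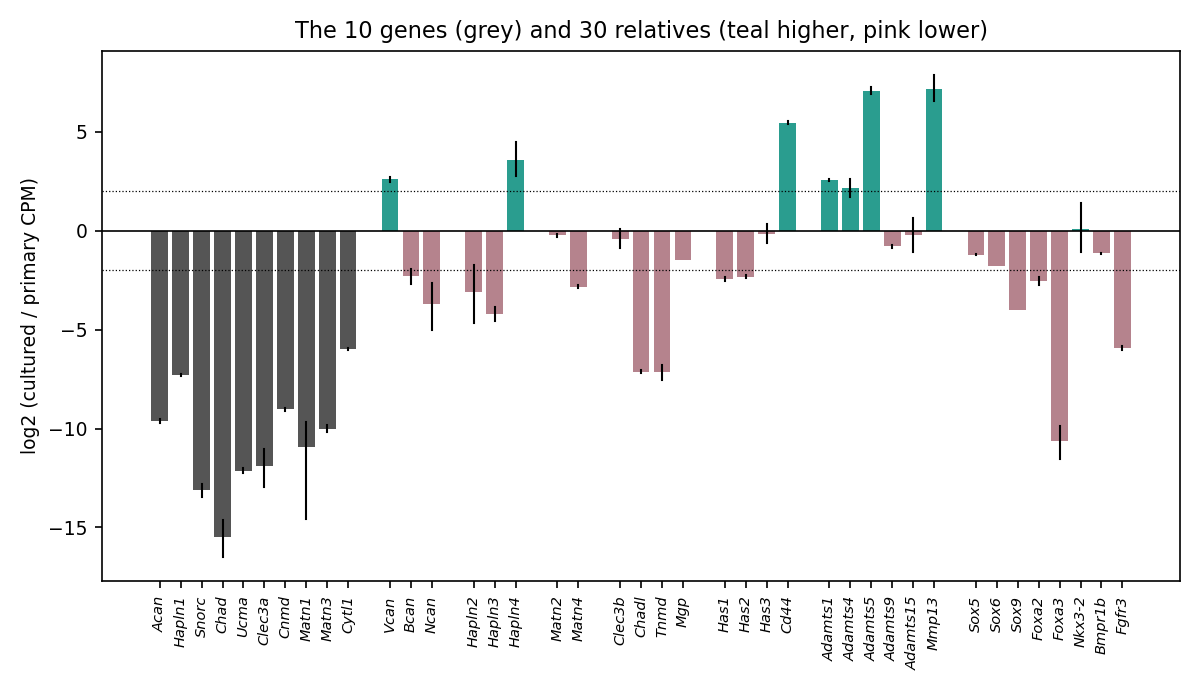
Log2 ratio of cultured over primary CPM for the 10 genes (grey) and 30 relatives in 7 lists, 1 library each, with 95% counting intervals as lines and dotted lines at 4-fold. The 10 genes lie between -15.49 and -5.996, while the relatives reach from -10.65 to 7.19.

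Depth differed between the libraries, so cells with at least 5000 UMIs were thinned to 5000 before shares were compared, which left 10959 primary and 4543 cultured cells and left out 787 and 795. In primary cells 6 genes had a UMI in at least 90% of cells, namely Acan in 98.9%, Hapln1 in 98.2%, Snorc in 98.8%, Chad in 98.2%, Ucma in 99.5% and Cnmd in 99.5%. Matn3 was found in 83.6% (unthinned 91.3%), Cytl1 in 68.4% (78.9%), Clec3a in 27.0% (40.4%) and Matn1 in 6.75% (12.8%). In cultured cells Hapln1 was found in 3.68%, Cytl1 in 3.04%, Cnmd in 2.55% and Acan in 0.991%. Chad, Clec3a and Matn1 were seen in 0 of 4543 thinned cultured cells, for which a count of 0 allows up to 0.0812%.

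Shares were also high in cells that should lack these genes. In the 30 thinned primary cells with endothelial, haematopoietic or mast genes (median 13221 UMIs, against 10427 in the others), Acan was found in 73.3% (interval 54.1 to 87.7) and Ucma in 93.3%. The shares of Matn3, Cytl1, Clec3a and Matn1 in all primary cells lay inside the intervals of these 30 cells, so those shares are not read as expression cell by cell. Whether free RNA or doublets gave the UMIs in these 30 cells was not tested. In the 103 thinned cultured cells that met the same rule (median 112014 UMIs, against 65674.5 in the others), Hapln1 was found in 2.91% and Acan in 0.971%. There the rule is a poor sign of another cell type. Egfl7 and Cd68, which count toward it, had a UMI in 37.6% and 21.8% of all cultured cells. Of the 106 such cells before thinning, 9 lay in the cluster named haematopoietic.

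The number of the 10 genes seen per cell had a median of 8 in thinned primary cells, and 68.1% of cells had at least 8. It separated cells poorly, since the 30 cells with endothelial, haematopoietic or mast genes also had a median of 8, and 56.7% of them (interval 37.4 to 74.5) had at least 8. The summed count of the 10 genes had a median of 91 UMIs of 5000, with 56 at the 10th and 125 at the 90th percentile. In the cultured library 4154 of 4543 thinned cells (91.4%) had none.

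The genes differed in how evenly they were spread. Cnmd had the lowest coefficient of variation, 0.407, with a median of 16 UMIs per thinned cell, 9 at the 10th and 26 at the 90th percentile. This measure falls as the mean rises, and by variance over mean Hapln1 (1.99), Chad (2.70), Snorc (2.72) and the sparse Matn1 (1.84) were below Cnmd (2.82). Ucma ranged from 12 to 55 UMIs between the same percentiles around a median of 31. Cytl1 had a median of 2, a 90th percentile of 11 and a highest cell of 80 UMIs, with a coefficient of variation of 1.49. Clec3a and Matn1 had medians of 0, and single cells reached 40 and 14 UMIs.

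**Figure D3:**
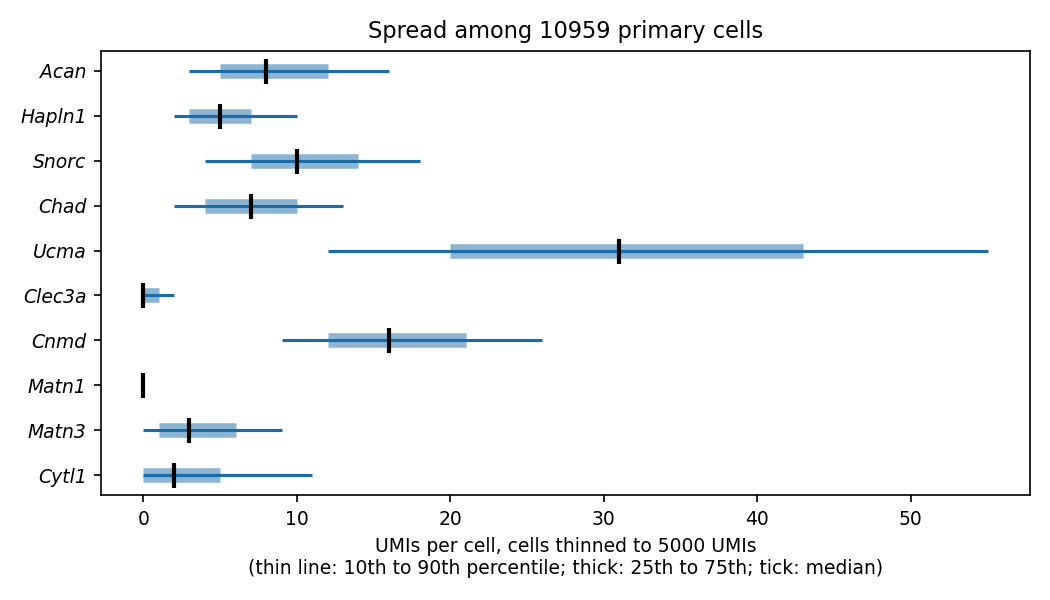
UMIs per primary cell after thinning to 5000 UMIs (10959 cells), with the 10th to 90th percentile as a thin line, the 25th to 75th as a thick line and the median as a tick. Ucma has the highest median, 31 UMIs, and the lower end of Matn3 and Cytl1 reaches 0.

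Over these cells of 1 library, Pearson correlations between the 45 pairs ran from -0.157 to 0.535 with a median of 0.0596, and 34 were above 0. The part of depth and of free RNA in them was not tested. The highest was Ucma with Cnmd, and the lowest was Snorc with Cytl1. Among 3021 other genes with at least 50 CPM, Col2a1, the main cartilage collagen, was most like Ucma (0.698), Cnmd (0.588) and Acan (0.467). The next for Acan were Scrg1 and Epyc, for Ucma Col9a3 and Mia, and for Cnmd Col9a3 and Col9a1. Snorc and Hapln1 were closest to the collagen IX genes Col9a2 (0.416) and Col9a3 (0.275), and Chad to Sparc (0.461). Col9a3 and Col2a1 followed for Snorc, Col9a1 and Col2a1 for Hapln1, and Col2a1 and Mia for Chad. Matn3 and Cytl1 stood elsewhere, nearest to Mgp (0.292) and Wif1 (0.369), a secreted Wnt inhibitor, then Smoc2 and Kcnma1 for Matn3 and Dlk1 and Comp for Cytl1. No gene exceeded 0.0998 with Clec3a or Matn1, where counts were sparse (Papss2, Wwp2 and Xylt1 for the former, Ppa1, Tpm1 and Col9a2 for the latter).

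Depth moved with some levels even after thinning. From the shallowest to the deepest tertile of primary cells (median 7103 and 17059 UMIs), Cytl1 went from 5.71 to 2.64 UMIs per 5000 and Acan from 6.74 to 10.99. The part of depth in the differences among primary cells below was not tested.

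Primary cells were clustered without the 10 genes into 10 clusters of 136 to 2582 cells, known by their leading genes. All 10 genes differed at least 2-fold between the highest and lowest cluster, as did 50.7% of 7662 genes, so the count is not particular to them. Median depth ran from 6058 to 17168 UMIs per cell over clusters.

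Cluster 6 (888 cells, led by Slc35f1, Runx3 and Wnt5b) held the highest levels of Matn3 (1697 CPM), Matn1 (55.5 CPM), Snorc (2992 CPM) and Clec3a (164 CPM), together with the lowest Chad (910 CPM). Snorc in cluster 8 (2849 CPM) and Clec3a in cluster 0 (153 CPM) were close to it. Runx3 is a regulator of chondrocyte maturation. Other prehypertrophic or hypertrophic markers differed in cluster 6. Col10a1 was at its lowest there, 0.0882 CPM, and Ihh at its highest, 8.73 CPM. Col10a1 reached no more than 1.79 CPM in any primary cluster (cluster 2). In cluster 7, where Chad was as low (917 CPM), Matn1 (6.87 CPM) and Matn3 (268 CPM) were at their lowest.

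Cytl1 followed another order. It was highest in cluster 1 (led by Trf, Fzd9 and Foxc2) at 1105 CPM and lowest in cluster 2 (Aoc2, Acta2 and Grem1) at 171 CPM. Clusters 3 and 0 were close to cluster 1, at 1090 and 1024 CPM. Cluster 2 in turn had the highest Chad (2046 CPM) and Cnmd (4209 CPM), with cluster 9 near it at 1957 and 4145 CPM. Cluster 9 (136 cells, led by 1700001K19Rik, Pknox2 and Zbtb16) was highest for Acan (2821 CPM), Hapln1 (1617 CPM) and Ucma (8977 CPM). For Acan and Ucma, cluster 2 was near it at 2757 and 8606 CPM.

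Acan was lowest in cluster 0 (2582 cells, led by Clu, Ppargc1a and Cilp2), at 1056 CPM, and nearly the same in cluster 7, at 1065 CPM. Cluster 0 also had Hspa1a, a heat shock gene, at 834 CPM, and the part of heat shock in the difference was not tested. Cluster 7 (289 cells), mesenchymal fibroblast-like and led by Col1a1, Postn and Thbs4, had the lowest Hapln1, Snorc, Ucma, Clec3a, Cnmd, Matn1 and Matn3, with Ucma at 3031 CPM, and held 27 of the 38 cells with endothelial, haematopoietic or mast genes. At a cluster resolution of 1.0, a cluster of 25 endothelial cells had Ucma at 3606 CPM, and the Col1a1-led cluster had 2960 CPM. The Ucma level of cluster 7 is therefore not read as expression by fibroblast-like cells.

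**Figure D4:**
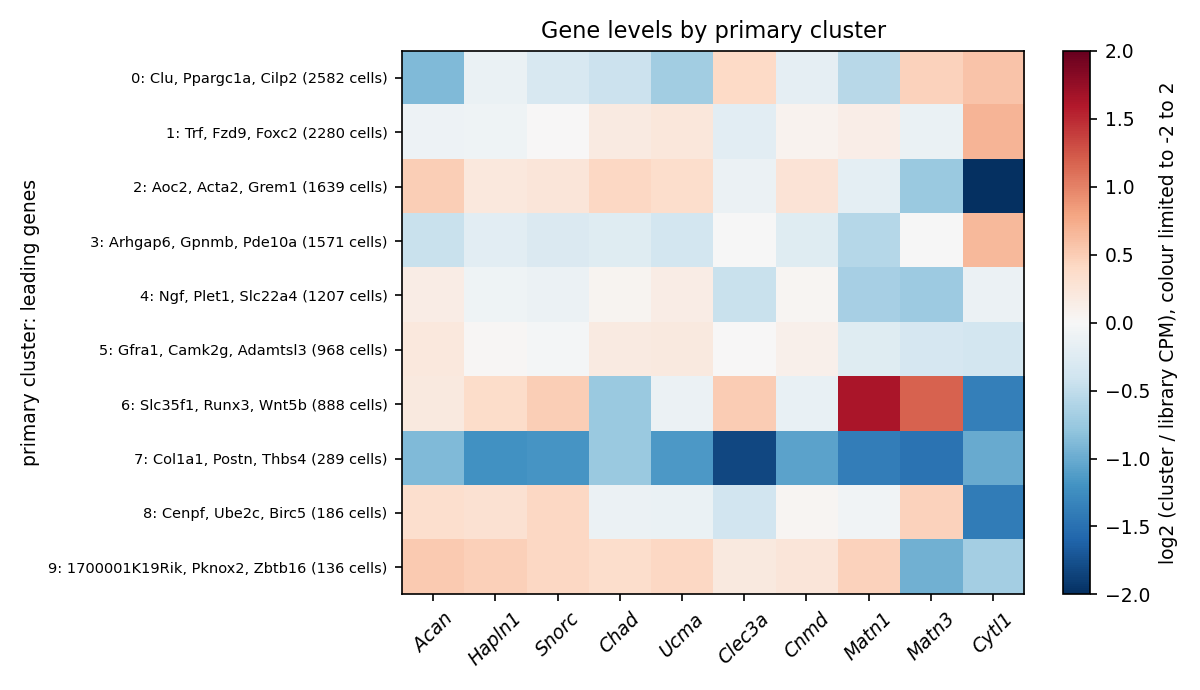
Log2 of cluster over whole-library CPM for the 10 genes in 10 primary clusters, named by their 3 leading genes, with the colour limited to -2 to 2. Matn1 (55.5 CPM) and Matn3 (1697 CPM) are darkest red in cluster 6, and Cytl1 (171 CPM) is darkest blue in cluster 2.

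Marker splits regrouped the same primary cells and were not independent of the clusters. Runx3, which leads cluster 6, is among the prehypertrophic markers, and Clu and Cilp2, which lead cluster 0, are among the resting ones. Col10a1 is also on the prehypertrophic or hypertrophic list but was at most 1.79 CPM in any primary cluster. In 395 thinned cells with at least 3 prehypertrophic or hypertrophic genes, which mark chondrocytes that enlarge before bone forms, Matn1 stood at 32.9 CPM against 13.2 CPM in 4291 cells with none, 2.50-fold higher. These levels came from 65 and 283 UMIs, and the log2 interval of 0.91 to 1.71 included less than 2-fold. Matn1 was the only 1 of the 10 at least 2-fold apart, where 1.46% of 7672 genes were. But the count became 0 with at least 2 marker genes and 2 without thinning. Matn3 was 1.68-fold and Clec3a 1.46-fold, Cytl1 0.575-fold and Acan 1.00-fold.

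In 1659 cells with resting or superficial genes against 3199 without (median 8511 and 11207 UMIs), Matn1 was 0.400-fold, Ucma 0.501-fold and Acan 0.507-fold, while Matn3 was 1.38-fold. Matn1 was the 1 member past 2-fold there, where 6.63% of genes were. It had 76 and 366 UMIs, and its log2 interval of -1.70 to -0.96 included less than 2-fold. In 173 dividing cells against 10230 others (17178 and 10359 UMIs), Cytl1 stood at 223 against 804 CPM, 0.278-fold, where 9.54% of genes were 2-fold apart, and Matn3 was 1.49-fold. A split by heat shock genes left 14 cells on 1 side against 8504, so no level is read from it.

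The counts left in culture were not spread evenly. Of 5338 cultured cells, 1757 (32.9%) had a UMI of at least 1 of the genes, and 89 (1.67%) had at least 4 of them. The 53 cells with most UMIs of a gene, 1% of cells, held 72.7% of Acan, 81.2% of Ucma, 63.3% of Cytl1 and 57.8% of Cnmd UMIs. Hapln1 was the more dispersed, with 28.1% in its top 53 cells and a UMI in 1075 cells.

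A set of 59 cultured cells with UMIs of at least 3 of Col9a1, Col9a2, Col9a3 and Col11a2, collagen genes of cartilage, was chosen after the values were seen. These 59 cells were 1.11% of cells and 1.41% of UMIs and held 34.9% of the summed UMIs of the 10 genes. In them Acan had 91.9 CPM against 0.991 CPM in the 4711 cells with none of the 4 collagens, Cnmd 194 against 2.02 CPM, and Ucma 66.5 against 0.309 CPM. Cytl1 reached 258 CPM, 2.69-fold below the primary library, whereas Snorc at 12.9 CPM remained 165-fold below it. Clec3a had 0 UMIs in the set.

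The median depth of the 59 cells was 69401 UMIs, and that of the 4711 cells 53495. None of the 59 carried a barcode kept in the primary library, which says little because only 15 of all 5338 cultured cells did. ZsGreen had 0 UMIs in all cultured cells. The 59 cells were spread over 7 of the 10 cultured clusters, with 23 in cluster 3 (717 cells, led by Gpc3, Aspn and Peg3). Leaving them out removes cells rich in most of these genes, so it could hardly bring the libraries closer. All 10 genes were then at least 4-fold lower. The log2 ratio of Snorc went from -13.12 to -15.15, that of Chad from -15.49 to -16.93 and that of Ucma from -12.14 to -13.53. Acan went from -9.60 to -10.62 and Cnmd from -9.04 to -9.78.

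**Figure D5:**
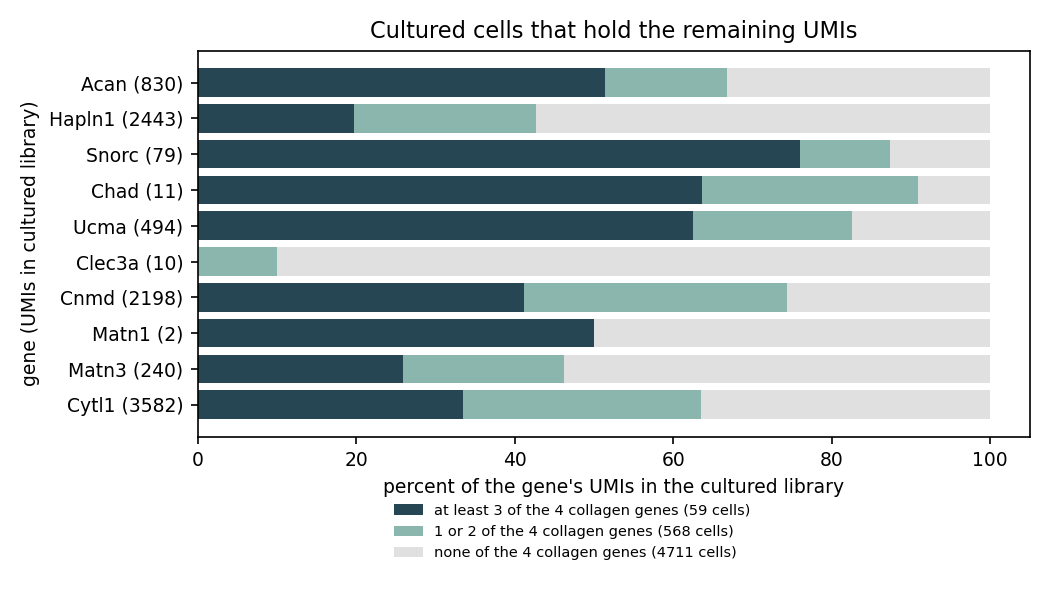
Percent of each gene's cultured UMIs (total in brackets) found in cells with at least 3 (59 cells), 1 or 2 (568 cells) or none (4711 cells) of 4 cartilage collagen genes. The 59 cells hold 75.9% of Snorc and 51.4% of Acan UMIs, but 19.7% of Hapln1 and none of Clec3a.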

How the data were processed

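The deposited files hold whole-number UMI counts per gene and barcode for 2 libraries, which the authors made from 10x 3′ v3.1 reads with Cell Ranger (7.0.0 in the submitters' processing notes). Those notes name mm10, GRCm38 and GRCm39 without a role, and whether intronic reads were counted is not given in the sources used here. The 10 genes and all lists were chosen with earlier results of these data known. UMIs of kept barcodes were summed per library and scaled to CPM. Ratios raise counts under 3 to 3. Cells are not replicates and each group holds 1 library, so no test was run. Intervals are exact Poisson, Clopper-Pearson binomial or conditional binomial at 95%, and cover counting error only. Shares use cells thinned to 5000 UMIs. No doublets were removed, because Scrublet's automatic threshold called 0 primary and 1 cultured cell and so did not work. Leiden clusters (resolution 0.5, 20 neighbours, 10 principal components, 2000 variable genes) were made in scanpy 1.11.5 without the 10 genes, and TMM factors in edgeR 4.0.16. Named genes were the 10, every relative, the 3 genes most correlated with each and each cluster's 3 leading genes, besides cell type markers. ZsGreen, Edil3, Acsf2 and Gm8546 were named outside this rule, after their values or positions were seen. Totals were 137148874 primary and 330129909 cultured UMIs, where 3 counts equal 0.0219 and 0.00909 CPM. Scripts were tested on simulated data. Ratios were recomputed under other scalings, cell filters, doublet cuts, floors and thresholds.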

Additional observations from a re-analysis of the deposited data

Results flagged for a closer look

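Barcodes that failed the cell filter were used in no comparison, yet held UMIs of the 10 genes. In the primary library 150 such barcodes held 2375 of these UMIs, or 11302 CPM, against 18578 CPM in kept cells. In the cultured library 5460 failed barcodes held 138, or 21.9 CPM, against 29.95 CPM in kept cells, and 5336 of these barcodes had fewer than 1000 UMIs. Hapln1 made up 44 and Cytl1 36 of the 138.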

How the results depend on the processing

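No paired analysis was possible because each group holds 1 library. All 10 genes stayed at least 4-fold lower under each of the 13 alternatives, including 8-fold, and all 120 recomputed log2 ratios were below 0, between -16.93 and -5.84. Leaving out the 59 collagen-positive cultured cells, which gave -16.93, or the Col1a1-led primary cluster could hardly bring the libraries closer. Of the 120 ratios, 28 lay outside the counting interval of the reported value. Chad moved furthest toward 0, to -12.84 when each cell weighed the same, and Snorc (-12.90) then had the lowest ratio. With only cells of at least 5000 UMIs, pooled, Chad was at -15.63. TMM scaling shifted every log2 ratio by -0.20, which takes the median of all genes from 0.37 to 0.17. The count of all genes at least 4-fold lower was 522, and became 315 at 8-fold, 960 with a minimum of 1 CPM and 1939 with no minimum. Relatives at least 4-fold apart numbered 20, and 12 at 8-fold. Genes at least 2-fold apart with prehypertrophic markers numbered 1, then 0 with at least 2 marker genes and 2 without thinning. Genes in at least 90% of primary cells numbered 6, and 4 at 2000 UMIs per cell or 7 unthinned.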
